A study of Mus musculus with 15 samples.

Results

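The muscle coat of the colon and the enteric nervous system inside it were followed through 33 genes of the 55335 in the files. The genes were listed by name for what they are known to mark: 19 for smooth muscle, 1 (Ano1) for interstitial cells of Cajal, 10 for enteric neurons and 3 for enteric glia. RNA was sequenced from colon tissue of 15 mice in 3 groups of 5, and each file held 1 mouse. Every mouse had DSS, dextran sulfate sodium, which injures the colon lining. The DSS group had nothing further by its label, in DSS_ICB immune checkpoint blockade (ICB) was added, and DSS_ICB_Fp mice had both and a gavage of Faecalibacterium prausnitzii, a gut bacterium that makes butyrate. The labels name no antibody, control antibody, control gavage, cage, strain, age or sex, and no group without DSS was analysed here, so the effect of DSS itself was not measured, and effects of handling and cage cannot be told apart from those of the treatments. Mouse numbers within a group are names only.

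The muscle coat moves the contents of the colon. Its smooth muscle cells contract through actin and smooth muscle myosin when calcium activates the myosin kinase, interstitial cells of Cajal set the pace of the contractions through the chloride channel that Ano1 encodes, and neurons of the enteric plexuses, wrapped by glia, excite or relax the muscle. The coat lies outside the mucosa, so the share of muscle and plexus RNA in a piece of colon also depends on how much of each layer the piece held. In such bulk tissue, fewer cells of a type and less RNA per cell cannot be told apart.

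Many smooth muscle genes are controlled by serum response factor, which binds the CArG box. The stretches below are shown because they are where letters of that box stand close to the start of genes whose values follow, and the capitals mark each match. The box was searched as CC, then 6 bases of which at least 5 are A or T, then GG, which reads alike on both strands, in the 250 bases before each start site of the RefSeq promoter table (build GRCm38.p6).
Synm, chr7:67759743-67759992, minus strand: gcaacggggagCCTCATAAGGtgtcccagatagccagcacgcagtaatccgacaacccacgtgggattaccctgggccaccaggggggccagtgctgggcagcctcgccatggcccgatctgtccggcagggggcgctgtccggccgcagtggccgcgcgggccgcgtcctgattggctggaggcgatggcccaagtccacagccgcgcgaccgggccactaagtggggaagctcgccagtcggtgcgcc
Myl9, chr2:156775214-156775419, plus strand: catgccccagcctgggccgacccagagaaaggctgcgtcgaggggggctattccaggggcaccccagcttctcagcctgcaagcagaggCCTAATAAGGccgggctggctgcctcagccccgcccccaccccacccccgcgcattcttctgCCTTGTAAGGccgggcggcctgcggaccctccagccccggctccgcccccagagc
Acta2 site 1, chr19:34255438-34255467, minus strand: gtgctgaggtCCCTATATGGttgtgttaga
Acta2 site 2, chr19:34255388-34255417, minus strand: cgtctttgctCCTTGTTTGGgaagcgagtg
Elavl4, chr4:110287538-110287567, minus strand: acagatggtcCCATAAATGGatgtaaaaag

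The table held 31 windows for 26 of the 33 genes. It held none for Actg2, Myh11, Tagln, Ret, Snap25, Stmn2 and Sox10, so these genes were not searched. Among smooth muscle genes, 3 of 18 windows (16.7%) held a match, those of Acta2, Myl9 and Synm, against 2823 of all 32851 windows (8.59%). With all 6 middle bases A or T, 1 of the 18 windows held it (Myl9), against 1.47% of all windows. The neuronal gene Elavl4 held such a box in 2 overlapping windows, so the letters were not confined to muscle genes. The matches lie 84 and 34 bases before the RefSeq start in Acta2, 161 and 99 in Myl9 and 239 in Synm. The Elavl4 match lies 46 and 30 bases before the RefSeq starts of its 2 overlapping windows. GENCODE M21 starts Acta2 further upstream, so both Acta2 sites lie in its annotated 5′ UTR, and the Myl9 stretch ends where GENCODE's Myl9 begins. A match describes the sequence only and shows no binding. Acta2 and Myl9 hold 2 matches each, and Synm holds 1. These genes differed between mice much as the muscle genes searched without a match and those not searched, as the values that follow show.

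The authors deposited FPKM, which scale the fragments of a gene to its transcript length and to the library, so levels of genes can be set against each other per length. Between 13243 and 14336 genes per library reached 1 FPKM, and depth, estimated from the steps between low values, was 15.45 M to 25.1 M fragments. The library of DSS_ICB 3 stood apart, with a median rank correlation of 0.725 with the others, and DSS_ICB 5 followed at 0.864, whereas the other 13 had at least 0.922. In DSS_ICB 3 the 37 mitochondrially encoded genes made up 33.2% of FPKM (9.39% to 25.8% elsewhere), and all 10 epithelial list genes had their lowest value (summed 583 FPKM, against 3435 to 5111). The 8 leukocyte list genes summed to 1989 FPKM there (191 to 1477 elsewhere), but only 2 of the 8 were highest in that library and 2 were lowest. The part of these features in the muscle and plexus values was not tested, and the comparisons that use DSS_ICB are given with all mice first and then without DSS_ICB 3 for the classes and the main genes.

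Smooth muscle genes were abundant in every library, and neuron and glia genes were present at low levels. By mean over the 15 mice, Tagln stood highest at 909.8 FPKM, followed by Acta2 (820.0 FPKM), Actg2 (740 FPKM), Myl9 (622 FPKM) and Csrp1 (556 FPKM), and Kcnmb1 lowest among muscle genes at 7.59 FPKM. The steps between these 5 genes were smaller than the SD of each over the mice of DSS_ICB. Among neuronal genes the order ran from Vip (16.5 FPKM) through Uchl1 (9.47 FPKM) and Prph (8.30 FPKM) down to Nos1 (1.41 FPKM) and Elavl3 (0.461 FPKM). The glial genes Gfap, S100b and Sox10 had means of 3.33, 2.05 and 1.38 FPKM. The 19 muscle genes together made up 0.521% to 1.96% of FPKM in 14 mice and 5.23% in DSS_ICB 3.

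**Figure D1:**
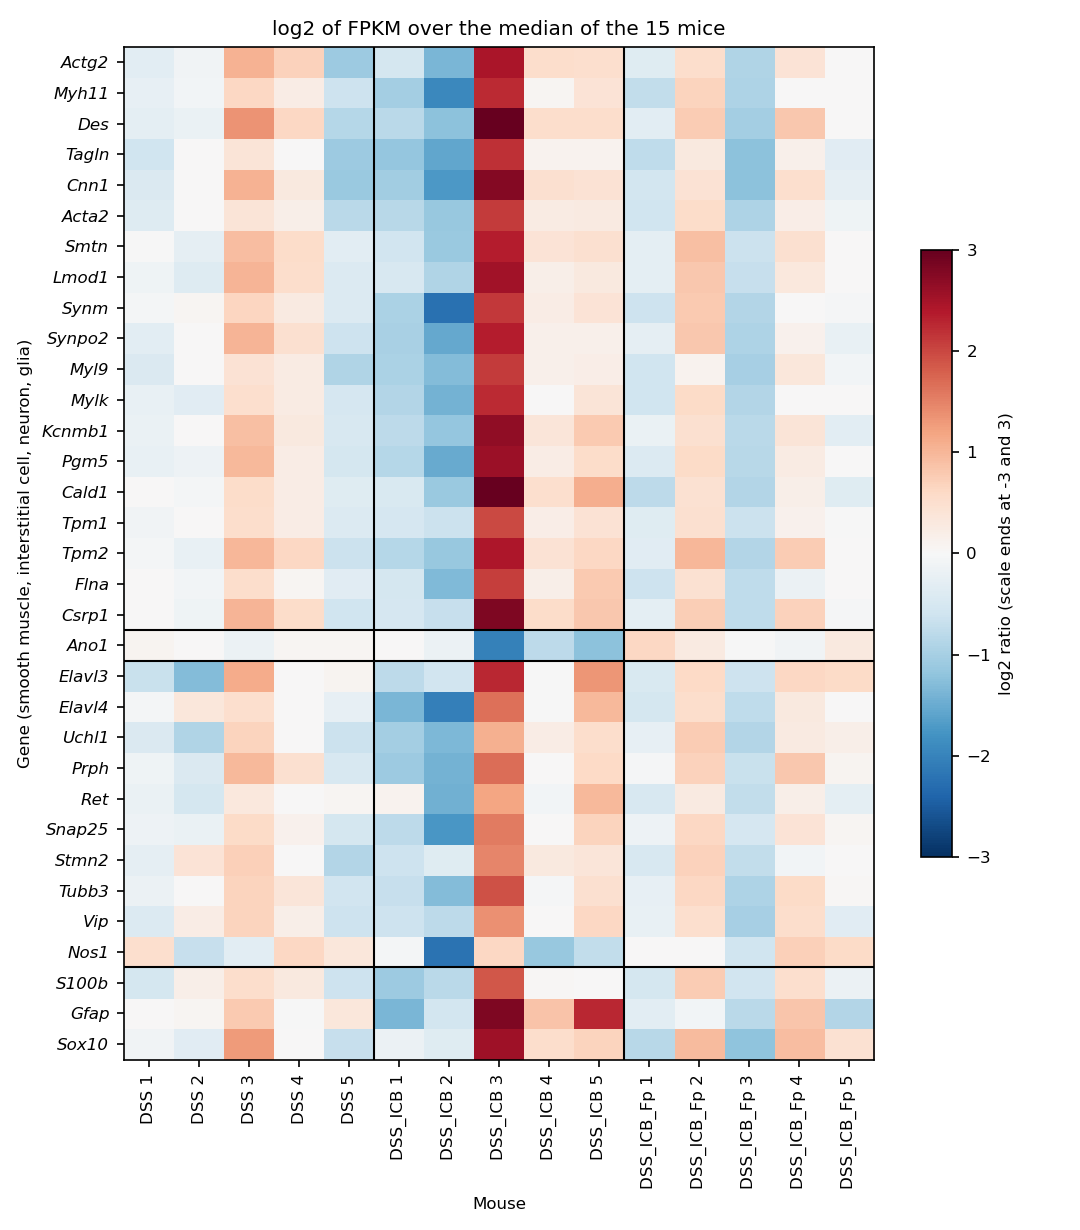
Each cell is the log2 of a gene's FPKM in 1 mouse (columns, grouped by treatment) over the median of the 15 mice (rows are the 33 genes, with lines between the smooth muscle, interstitial cell, neuron and glia classes). The DSS_ICB 3 column is red for muscle, neuron and glia genes and blue for Ano1, and in most other columns the muscle genes are of 1 colour throughout.

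The differences between mice ran through the whole muscle class at once, and the widest were inside the DSS_ICB group. In DSS_ICB 3 all 19 muscle genes had the highest value of the 15 mice, at a median of 5.48 times the median of the other 14 (3.98 times for Tpm1 to 9.14 times for Cald1), whereas over all genes tested 17.5% were highest there and the median ratio was 0.829. DSS_ICB 2, of the same group, had the lowest value for 18 of the 19 (4.69% of all genes tested). With all mice, the SD of log2 values was largest in DSS_ICB for all 33 genes, against 68.5% of all genes tested. For muscle genes the median SD was 1.40 log2 units in DSS_ICB, 0.54 in DSS and 0.59 in DSS_ICB_Fp.

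Myh11 (chr16:14194535-14291372, minus strand, GRCm38), the smooth muscle myosin heavy chain, was at 229, 259, 417, 321 and 178 FPKM in the DSS mice, at 135, 71.3, 1288, 283 and 364 FPKM in the DSS_ICB mice and at 163, 435, 144, 274 and 273 FPKM in the DSS_ICB_Fp mice, in the order of the mouse numbers. The 3 groups overlapped, and DSS_ICB held both the lowest and the highest mouse. Actg2, the gamma actin of gut smooth muscle, was at 439.9, 505, 1127, 877 and 256 FPKM in DSS, at 378, 212, 2967, 792 and 769.7 FPKM in DSS_ICB and at 423, 793, 291, 729 and 546 FPKM in DSS_ICB_Fp. Much the same mice were high and low as for Myh11, with DSS 3 and DSS 4 above the other DSS mice and DSS_ICB_Fp 2 above the others of its group.

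Tagln, an actin-binding protein of differentiated smooth muscle also called transgelin, was at 559, 857, 1105, 846 and 395 FPKM in DSS, at 379.8, 286, 3896, 912 and 915 FPKM in DSS_ICB and at 499, 1033, 361, 936 and 666 FPKM in DSS_ICB_Fp. Cnn1, calponin, which damps the actin-activated myosin motor, was at 193, 261, 535, 317 and 121 FPKM in DSS, at 127, 78.4, 1751, 362 and 353 FPKM in DSS_ICB and at 179, 354, 112, 367 and 218 FPKM in DSS_ICB_Fp. Des, desmin, the intermediate filament of muscle, was at 175, 189, 546, 332 and 119 FPKM in DSS, at 123, 92.2, 1713, 309.8 and 308 FPKM in DSS_ICB and at 172, 364, 106, 378 and 215 FPKM in DSS_ICB_Fp. Des had the second largest excess in DSS_ICB 3, 8.49 times the median of the other mice, after Cald1.

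The remaining muscle genes kept to this pattern. The filament and myosin genes Acta2, Myl9, Tpm1 and Tpm2 were between 3.98 and 5.49 times the median of the other mice in DSS_ICB 3, and the myosin kinase Mylk was at 347 FPKM there against 27.3 to 110.1 FPKM elsewhere. Smtn and Lmod1, which encode the contractile-apparatus protein smoothelin and an actin-nucleating leiomodin, were at 249 and 130.4 FPKM in DSS_ICB 3 against highest values elsewhere of 92.4 and 46.0 FPKM. The anchorage genes Synm, Synpo2, Pgm5, Flna and Csrp1 had ratios of 4.43, 5.48, 6.20, 4.30 and 7.11 to the median of the others. Kcnmb1, a regulatory subunit of the calcium-activated potassium channel that relaxes smooth muscle, was at 34.3 FPKM in DSS_ICB 3 and 2.42 to 10.1 FPKM elsewhere.

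**Figure D2:**
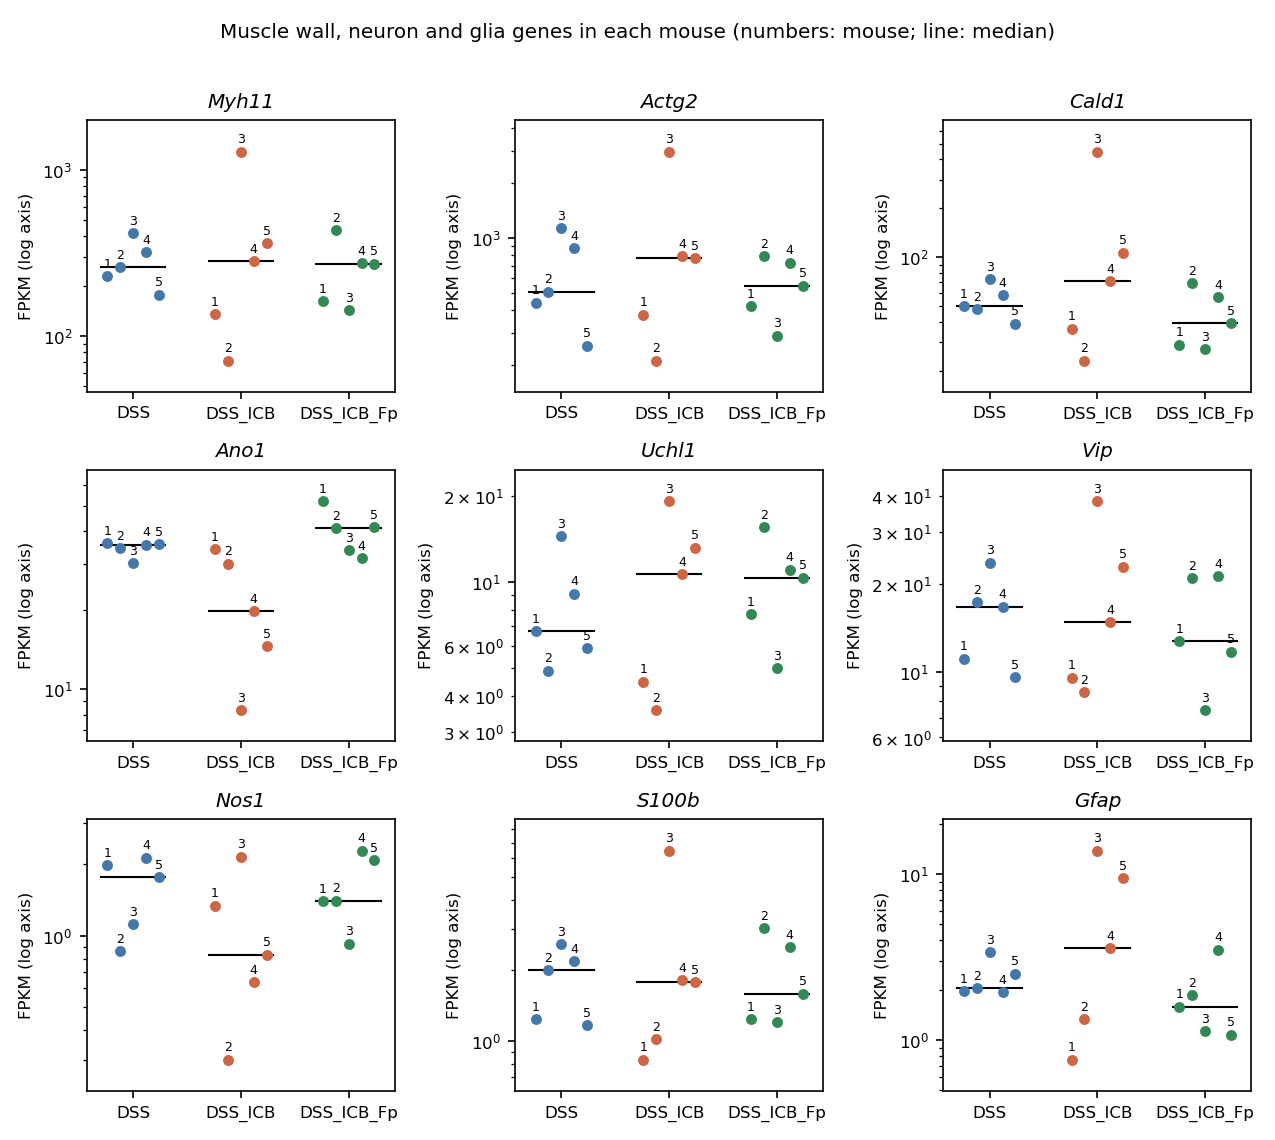
FPKM (log axis) of 9 genes in each mouse of the 3 groups, with mouse numbers at the points and a line at the group median. DSS_ICB 3 is the top point for 7 of the 9 genes, is at 2.15 FPKM for Nos1, just under DSS_ICB_Fp 4 (2.28 FPKM), and is the lowest for Ano1 (8.33 FPKM).

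Set against Myh11 of the same mouse, most muscle genes varied far less. Over the 15 mice the SD of the log2 ratio to Myh11 was 0.13 (Synm) to 0.38 (Cald1), with a median of 0.27, whereas the SD of the log2 level of these 18 genes was 0.66 to 1.10. The ratios all share Myh11 and the library, so they are given as a description. The ratio of Actg2 to Acta2, the gut-type against the vascular-type smooth muscle actin, was 0.969 in DSS_ICB 3, inside the 0.627 to 1.21 of the other mice. Tagln to Myh11 was 3.03 in DSS_ICB 3, and 2.22 to 4.01 in the others.

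Cald1 (chr6:34598500-34775473, plus strand), caldesmon, an actin-binding inhibitor of contraction that also has a form in cells other than muscle, departed most from Myh11. It was at 50.0, 48.0, 73.4, 58.6 and 38.9 FPKM in DSS, at 36.3, 23.1, 448, 71.4 and 107 FPKM in DSS_ICB and at 28.9, 68.9, 27.2, 56.6 and 39.1 FPKM in DSS_ICB_Fp. These levels overlapped, but the ratio to Myh11 did not: it was 0.268, 0.323, 0.348, 0.252 and 0.294 in the 5 DSS_ICB mice, 0.176 to 0.219 in DSS and 0.143 to 0.206 in DSS_ICB_Fp. All 5 DSS_ICB mice, including those with the least muscle RNA, stood above the other 10. Myh11 itself had a log2 difference of -0.03 in DSS_ICB against DSS, below the muscle median of 0.20. The ratio of Csrp1 to Myh11 overlapped narrowly, at 1.72 to 3.11 in DSS_ICB and 1.26 to 1.75 in DSS. That of Synm ran lower in DSS_ICB, at 0.109 to 0.150 against 0.137 to 0.155. Of 31 such ratios of the listed genes, Cald1 was the only one whose groups did not overlap in DSS_ICB against DSS and in DSS_ICB_Fp against DSS_ICB, where 0.389% and 0.396% of the 14384 genes tested had ratios to Myh11 that did not overlap. The ratio was examined after the values were seen, and the 2 comparisons share the DSS_ICB mice. Fibroblast, pericyte and vessel muscle, and endothelial lists had median differences of 0.62, 0.46 and 0.70 in DSS_ICB against DSS, with 0 genes called, and their part in the ratio was not tested.

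Ano1 (chr7:144588549-144751974, minus strand), the calcium-activated chloride channel of interstitial cells of Cajal, went against the muscle genes in DSS_ICB. It was at 36.0, 34.6, 30.2, 35.6 and 35.7 FPKM in DSS, at 34.2, 30.1, 8.33, 19.8 and 14.6 FPKM in DSS_ICB and at 52.2, 41.2, 33.9, 31.6 and 41.6 FPKM in DSS_ICB_Fp. DSS_ICB 3, 4 and 5 were below all 12 other mice, while DSS_ICB 1 and 2 were close to the DSS mice. Kit, the receptor that defines interstitial cells of Cajal and is also carried by mast cells, had the same order of group means but not of mice: its mean was 3.79 ± 0.503 FPKM in the DSS mice, 3.16 ± 1.01 FPKM under blockade and 4.53 ± 1.32 FPKM with the gavage (SD, n = 5), and it was at 4.76 FPKM in DSS_ICB 3, the highest of that group, where Ano1 was lowest. Ano1 was lowest in the mouse in which Epcam, an epithelial adhesion gene, was at 83.0 FPKM against 472 to 660.5 FPKM in the others. The same 3 mice that were low for Ano1 were low for the epithelial list. Its 10 genes summed to 583, 3435 and 3514 FPKM in DSS_ICB 3, 4 and 5, against 4159 FPKM or more in the 12 other mice. Whether the Ano1 RNA came from interstitial cells or from other cells, epithelium among them, was not tested.

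Neuronal genes followed the muscle genes, with a smaller range in DSS_ICB 3. There, 9 of the 10 had their highest value, at a median of 2.95 times that of the other mice (1.58 for Nos1 to 4.79 for Elavl3), and 7 of 10 were lowest in DSS_ICB 2. Uchl1 (chr5:66676091-66687234, plus strand), the abundant neuronal ubiquitin hydrolase also called PGP9.5, was at 6.74, 4.90, 14.5, 9.13 and 5.87 FPKM in DSS, at 4.48, 3.57, 19.2, 10.7 and 13.2 FPKM in DSS_ICB and at 7.71, 15.6, 5.00, 11.1 and 10.4 FPKM in DSS_ICB_Fp. Its groups overlapped, and DSS 3 and DSS_ICB_Fp 2 were the next highest mice after DSS_ICB 3.

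Prph, peripherin, an intermediate filament of peripheral neurons, was at 6.17, 5.01, 13.4, 9.5 and 4.86 FPKM in DSS, at 3.20, 2.52, 21.8, 6.79 and 10.3 FPKM in DSS_ICB and at 6.61, 10.9, 4.25, 12 and 7.24 FPKM in DSS_ICB_Fp. Elavl4, a neuronal RNA-binding protein of the Hu family, was at 1.25, 1.66, 1.84, 1.30 and 1.09 FPKM in DSS, at 0.501, 0.315, 4.09, 1.29 and 2.54 FPKM in DSS_ICB and at 0.909, 1.89, 0.766, 1.59 and 1.32 FPKM in DSS_ICB_Fp. Ret, the receptor for GDNF that neuron precursors need to colonise the gut, was at 1.67, 1.34, 2.38, 1.92 and 2.0 FPKM in DSS, at 2.06, 0.705, 4.38, 1.82 and 3.75 FPKM in DSS_ICB and at 1.37, 2.33, 1.15, 2.16 and 1.56 FPKM in DSS_ICB_Fp. For these genes too the DSS_ICB range enclosed those of both other groups.

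Elavl3, a Hu-family relative of Elavl4, was at 1.60 FPKM in DSS_ICB 3 and 0.136 to 0.842 FPKM in the others, below the filter for testing, and was the 1 listed gene not tested. Snap25 of the synaptic vesicle fusion machinery, Stmn2 of growing axons and Tubb3, neuronal tubulin, were at 6.67, 8.63 and 19.9 FPKM in DSS_ICB 3, above their highest values elsewhere of 3.63, 5.16 and 8.45 FPKM.

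The genes Vip and Nos1, which serve 2 of the inhibitory transmitters of the muscle, parted from each other in some mice only. Vip, the relaxant peptide, was at 11.1, 17.4, 23.6, 16.8 and 9.62 FPKM in DSS, at 9.59, 8.58, 38.3, 14.9 and 22.9 FPKM in DSS_ICB and at 12.8, 20.9, 7.44, 21.3 and 11.8 FPKM in DSS_ICB_Fp. Nos1, neuronal nitric oxide synthase, was at 1.98, 0.859, 1.12, 2.13 and 1.77 FPKM in DSS, at 1.34, 0.300, 2.15, 0.635 and 0.833 FPKM in DSS_ICB and at 1.39, 1.41, 0.927, 2.28 and 2.08 FPKM in DSS_ICB_Fp. Vip was high where muscle RNA was high, while Nos1 was below 1 FPKM in DSS_ICB 2, 4 and 5, in DSS 2 and in DSS_ICB_Fp 3. Of these mice, DSS_ICB 2 and DSS_ICB_Fp 3 were also the lowest for Vip, and DSS_ICB 3 was high for both genes. The ratio of Nos1 to Vip was 0.0349 to 0.0562 in DSS_ICB 2 to 5 and 0.139 in DSS_ICB 1. It was 0.0474 to 0.184 in DSS and 0.0673 to 0.177 in DSS_ICB_Fp, so the groups overlapped. At the estimated depth Nos1 rested on about 58.8 to 621 fragments per library.

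The 3 glial genes all had their highest value in DSS_ICB 3, and Gfap was also high in DSS_ICB 5. S100b (chr10:76253853-76261159, plus strand), a calcium-binding protein of glia, was at 1.24, 2.01, 2.59, 2.18 and 1.17 FPKM in DSS, at 0.833, 1.02, 6.46, 1.82 and 1.79 FPKM in DSS_ICB and at 1.24, 3.03, 1.2, 2.52 and 1.59 FPKM in DSS_ICB_Fp. Gfap (chr11:102887336-102900912, minus strand), the glial intermediate filament that reactive glia are known to increase, was at 1.98, 2.06, 3.39, 1.95 and 2.52 FPKM in DSS, at 0.765, 1.34, 13.8, 3.58 and 9.44 FPKM in DSS_ICB and at 1.59, 1.86, 1.13, 3.5 and 1.08 FPKM in DSS_ICB_Fp. Sox10, the transcription factor that maintains the glial lineage, was at 0.855, 0.736, 2.23, 0.925 and 0.570 FPKM in DSS, at 0.818, 0.714, 5.38, 1.34 and 1.46 FPKM in DSS_ICB and at 0.522, 1.77, 0.404, 1.75 and 1.27 FPKM in DSS_ICB_Fp. In DSS_ICB 5 Gfap was 5.28 times S100b, while Sox10 was 0.818 times S100b. The ratio of Gfap to S100b was 0.614 to 2.16 in the other 14 mice, DSS_ICB 3 included (2.14). S100b rested on about 26.4 to 148 estimated fragments and Sox10 on 23.3 to 254, so counting error adds to the spread of both.

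**Figure D3:**
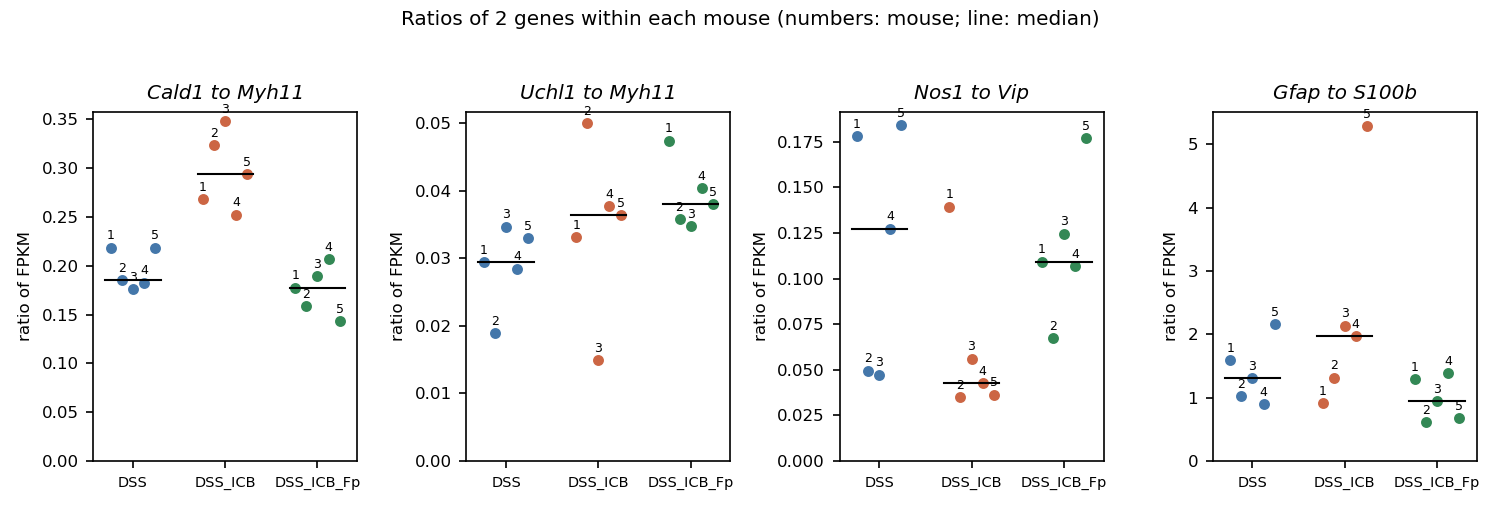
Ratios of FPKM of 2 genes in the same mouse, by group, with mouse numbers at the points and a line at the group median (axes start at 0). Cald1 to Myh11 is 0.252 or more in the 5 DSS_ICB mice and 0.219 or less in the others, and Gfap to S100b is 5.28 in DSS_ICB 5. Nos1 to Vip is at or under 0.0562 in 4 of 5 DSS_ICB mice, but also in DSS 2 (0.0495) and DSS 3 (0.0474).

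Myh11, Uchl1 and S100b, taken for muscle, neuron and glia RNA, moved together from mouse to mouse. Over the 15 mice, on log2(FPKM + 1), Myh11 and Uchl1 had Pearson r = 0.887 (permutation p = 1e-05, the smallest that the 100000 permutations can give) and Spearman rho = 0.929, and Myh11 and S100b had r = 0.920 and rho = 0.921. Uchl1 and S100b had r = 0.812 and rho = 0.839. The 3 pairs kept r = 0.864, 0.891 and 0.772 without DSS_ICB 2 and 3, the mice farthest from the median of the gene named first. With group means subtracted over all 15 mice, DSS_ICB 2 and 3 included, r was 0.916, 0.925 and 0.821. Groups of 5 are too small for r within a group. Adjusted over the 6 pairs computed, the permutation p values of r were 3e-05, 3e-05 and 0.0001, and those of rho were 6e-05, 6e-05 and 0.00046.

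For the other 3 pairs the r over all mice rested on the extreme mice. Myh11 and Ano1 had r = -0.613 (permutation p = 0.0225, adjusted 0.027) but rho = -0.275 (permutation p = 0.322), and r = -0.346 without DSS_ICB 2 and 3. With group means subtracted over all 15 mice it was -0.830. Myh11 and Epcam had r = -0.718 (permutation p = 0.00635, adjusted 0.00952), rho = -0.439 (permutation p = 0.103), r = -0.273 without those mice, and r = -0.782 with group means subtracted. Uchl1 and Chga, a granule protein of gut endocrine cells that neurons share, had r = -0.062 (permutation p = 0.844), rho = 0.368 (permutation p = 0.179), r = 0.747 without them and r = -0.071 with group means subtracted. In each setting above the plexus genes Uchl1 and S100b went up and down with Myh11 from mouse to mouse, whereas r of the pairs with Ano1, Epcam and Chga changed when DSS_ICB 2 and 3 were left out.

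**Figure D4:**
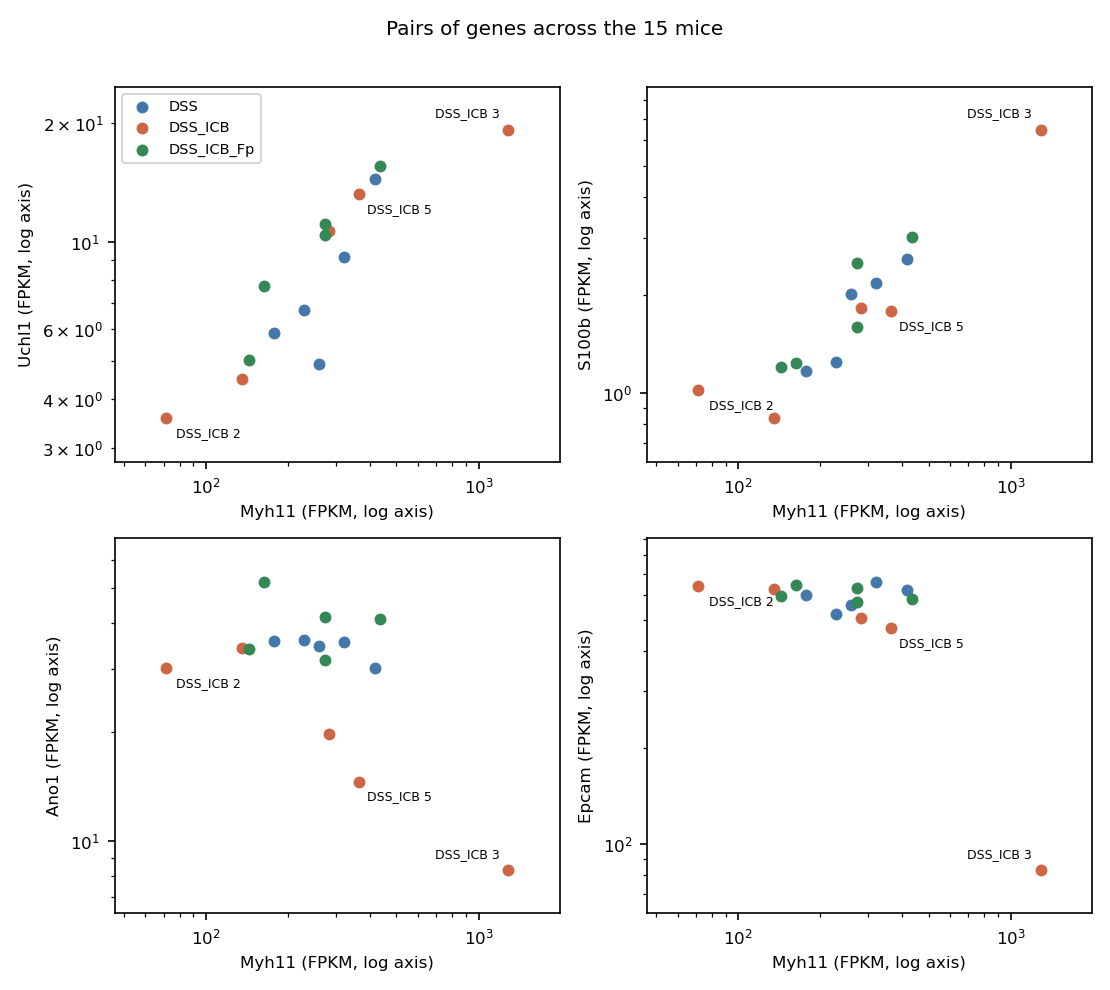
FPKM of Myh11 (horizontal, log axis) against Uchl1, S100b, Ano1 and Epcam (vertical, log axes) in the 15 mice, coloured by group. Points rise along a line for Uchl1 and S100b, whereas for Ano1 and Epcam the lowest point is DSS_ICB 3, at 8.33 FPKM for Ano1 and 83.0 FPKM for Epcam.

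The contrast of DSS_ICB with DSS bears on blockade added to DSS, and the labels do not give the order of the 2 in time. With limma on log2(FPKM + 1), a gene was called at a Benjamini-Hochberg adjusted p under 0.05 over the 14385 genes tested. Of the 32 listed genes tested, 0 were called, where 0.0209% of all genes were. At an unadjusted p under 0.05 there was 1, Ano1, where 11.3% of all genes were, and 0 had groups that did not overlap, where 1.54% of all genes had. The smallest adjusted p was 0.422. The muscle class had a median log2 difference of 0.20 with 16 of 19 above 0, the 9 neuron genes tested 0.06 with 6 above 0, and the glia genes 0.37 with 3 of 3 above 0, against 0.02 and 52.8% above 0 for all genes tested.

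The muscle and neuron signs turned without DSS_ICB 3. Without that mouse the muscle median was -0.37 with 0 of 19 above 0, the neuron median was -0.23 with 1 of 9 above 0, and the glia median was 0.05 with 2 of 3 above 0. The fit with all mice gave Myh11 a difference of -0.03 ± 0.59 (SE, limma adjusted p = 0.989), with a 95% interval from -1.28 to 1.22. Actg2 had 0.27 ± 0.59 (adjusted p = 0.860), and Uchl1 had 0.15 ± 0.40 (adjusted p = 0.887, interval -0.70 to 1.01). S100b had 0.08 ± 0.32 (adjusted p = 0.934) and Gfap 0.56 ± 0.47 (adjusted p = 0.617). Without DSS_ICB 3 these were -0.60 for Myh11 (adjusted p = 0.653), -0.26 for Actg2, -0.11 for Uchl1, -0.26 for S100b and 0.17 for Gfap, and none passed. Intervals of the width found with all mice leave differences of more than 2-fold in either direction undetected for Myh11.

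Ano1 had the largest difference, -0.81 ± 0.28 (SE, limma unadjusted p = 0.0122, adjusted p = 0.422), with means of 34.4 ± 2.42 FPKM with DSS alone and 21.4 ± 10.7 FPKM under blockade (SD, n = 5). Without DSS_ICB 3 it was -0.53 (adjusted p = 0.542). Nos1 had the next smallest p, with -0.37 ± 0.23 (adjusted p = 0.517), at 1.57 ± 0.556 FPKM in DSS against 1.05 ± 0.722 FPKM, and -0.54 without DSS_ICB 3 (unadjusted p = 0.0218, adjusted p = 0.542). Neither passed the test.

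The contrast of DSS_ICB_Fp with DSS_ICB bears on the bacterial gavage under blockade, and it shares the DSS_ICB mice with the comparison above. Again 0 of 32 listed genes were called by limma, where 0.132% of all genes were, and 1 (Ano1) had an unadjusted p under 0.05, where 21.8% of all genes had. Groups did not overlap for 0 of the 32, against 3.41% of all genes tested. The muscle median was -0.31 with 0 of 19 above 0, the neuron median -0.09 with 4 of 9 above 0 and the glia median -0.33 with 0 of 3 above 0, against -0.04 and 44.5% above 0 for all genes tested. Without DSS_ICB 3 the muscle median was 0.25 with 18 of 19 above 0 the neuron median 0.31 with 7 of 9 above 0, and the glia median -0.00 with 1 of 3 above 0.

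In this comparison Ano1 had the smallest p, with 1.01 ± 0.28 (SE, limma unadjusted p = 0.00302, adjusted p = 0.0946), at 40.1 ± 8.05 FPKM against 21.4 ± 10.7 FPKM (SD, n = 5). It was called when limma weighted the libraries by quality (0.78, adjusted p = 0.0373), without DSS_ICB 1 (1.21, adjusted p = 0.0364), and with the level of 5 contractile genes as a covariate (0.89, adjusted p = 0.0198), and over its 20 alternatives the adjusted p ran from 0.0198 to 0.249. Without DSS_ICB 3 the difference was 0.73 (adjusted p = 0.101). The value was above 0 in each of these fits. Kit had 0.41 ± 0.18 (unadjusted p = 0.0419, adjusted p = 0.214), and 0.54 without DSS_ICB 3 (adjusted p = 0.111).

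Cald1 had -0.91 ± 0.58 (SE, limma adjusted p = 0.371), the lowest difference of a listed gene here, and -0.28 without DSS_ICB 3. With the mean log2 level of Myh11, Actg2, Des, Tagln and Cnn1 as a covariate, an alternative chosen after seeing the data, it fell by 0.61 (adjusted p = 0.0474) and its difference in DSS_ICB against DSS was 0.39 (adjusted p = 0.240). Gfap had -0.86 ± 0.47 (adjusted p = 0.298), Nos1 0.39 ± 0.23 (adjusted p = 0.331), Myh11 -0.15 ± 0.59 (adjusted p = 0.902) and Uchl1 0.10 ± 0.40 (adjusted p = 0.903), none of which passed. Without DSS_ICB 3 these were -0.46 for Gfap, 0.57 for Nos1 (unadjusted p = 0.0168, adjusted p = 0.140), 0.42 for Myh11 and 0.37 for Uchl1, and none passed.

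DSS_ICB_Fp against DSS compared the 2 groups that do not hold DSS_ICB 3. By limma 0 of 32 were called, where 0.0% of all genes were, 0 had an unadjusted p under 0.05, where 1.41% of all genes had, and 0 had groups that did not overlap, where 0.389% had. The class medians were -0.12 for muscle (0 of 19 above 0), -0.03 for neurons (4 of 9) and 0.02 for glia (2 of 3), against -0.01 and 47.1% above 0 for all genes tested. Myh11 had -0.18 ± 0.59 (SE), Ano1 0.19 ± 0.28, Uchl1 0.26 ± 0.40, Vip -0.10 ± 0.38 and S100b 0.02 ± 0.32, all with a limma adjusted p of 1.0. The spread is shared by the 3 groups, so the wide DSS_ICB group also widens these errors. The ratio of Uchl1 to Myh11 was 0.0189 to 0.0347 in DSS and 0.0348 to 0.0474 in DSS_ICB_Fp, the 1 of 31 such ratios whose groups did not overlap (0.0973% of all genes tested). The nearest mice of the 2 groups were separated by about the rounding shown, and DSS_ICB spanned both with 0.0149 to 0.050.

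**Figure D5:**
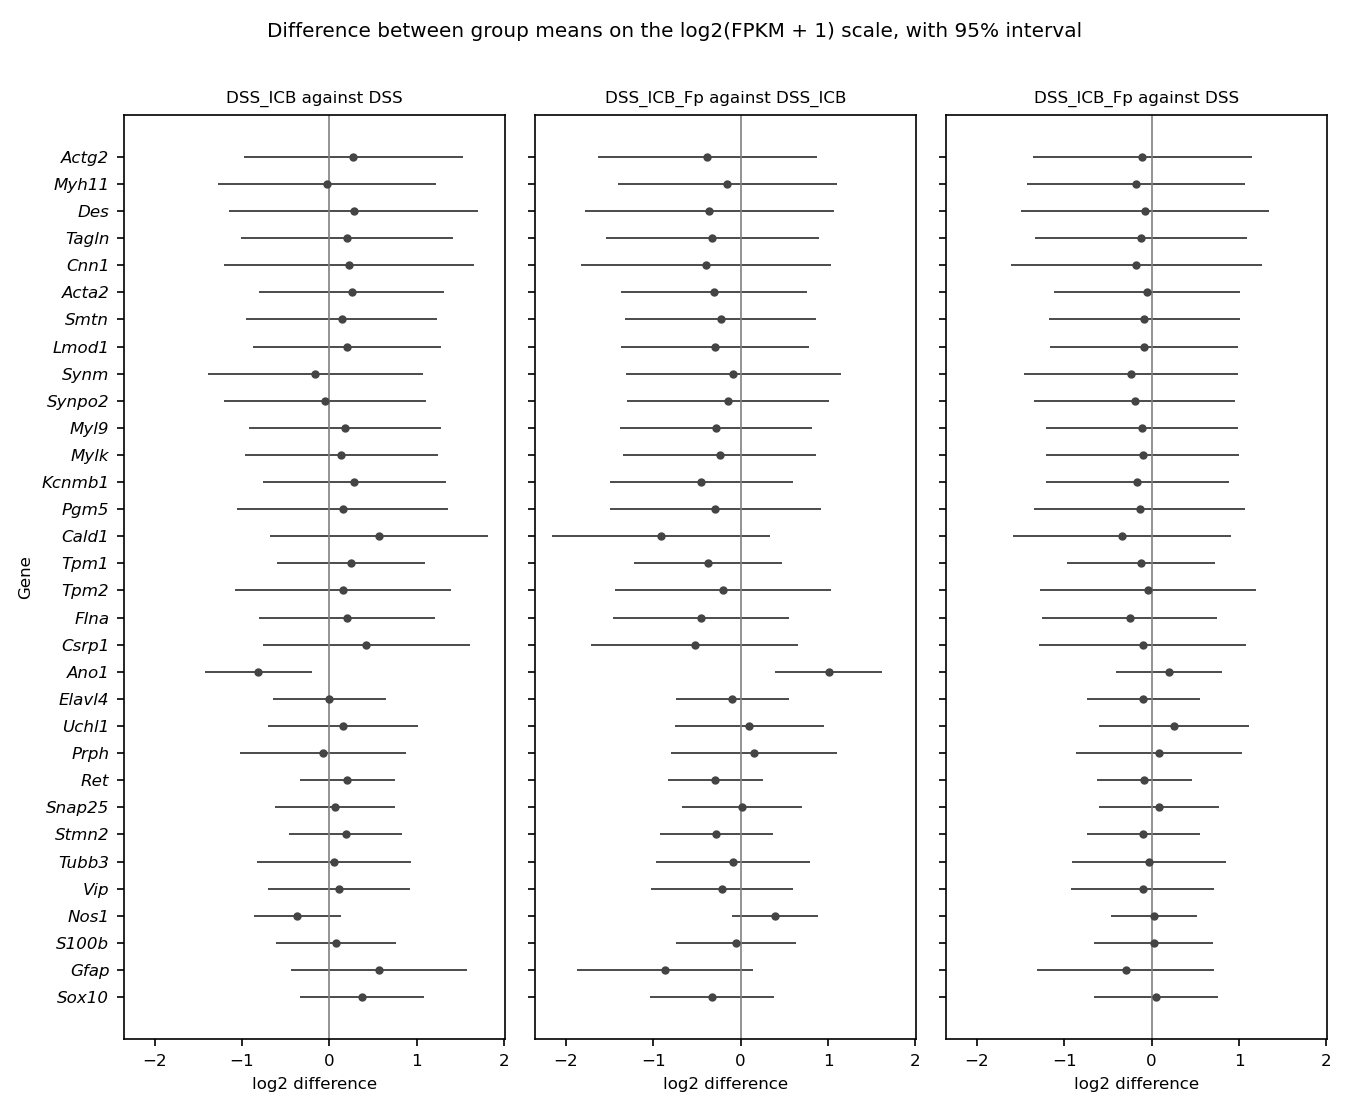
Log2 differences between group means (points) with 95% intervals (bars) for the 32 listed genes tested, in the 3 comparisons. Every interval spans 0 except those of Ano1 in DSS_ICB against DSS (-0.81) and in DSS_ICB_Fp against DSS_ICB (1.01), neither of which passed after adjustment over all genes.

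Many other genes of the same tissue layer were, like the listed ones, highest in DSS_ICB 3, and none passed the test with all mice. Of 22 genes of muscle control and excitation, 19 were highest in DSS_ICB 3, and of 20 of muscle anchorage, 18. Of the 30 further neuron genes 21 were highest there, and of the 12 further glia genes 7, where 17.5% of all genes tested were. In each of these lists 1 gene was lowest in DSS_ICB 3, such as Mrtfb (3.20 FPKM, against 5.12 FPKM or more elsewhere). The further glia genes summed to 55.0 FPKM in DSS_ICB 3, inside the 44.8 to 92.5 FPKM of the other mice. Movement with the listed genes over the other mice was not tested. In these lists 0 of 17, 18, 22 and 10 genes tested were called in any comparison with all mice. At an unadjusted p under 0.05 they held 0 genes in DSS_ICB against DSS, 3 in DSS_ICB_Fp against DSS_ICB and 1 in DSS_ICB_Fp against DSS. The shares of all genes tested were 11.3%, 21.8% and 1.41% in the same order. The smallest p was that of Entpd2, an ectonucleotidase of glia, at 8.39 FPKM in DSS_ICB and 11.9 FPKM in DSS_ICB_Fp (0.45 ± 0.13, SE, limma adjusted p = 0.102; 0.47 without DSS_ICB 3). Of the 14 neurotrophic ligands and receptors that act on neurons and glia, Ret's partners among them, 0 of 8 tested were called and 0 had an unadjusted p under 0.05 in any comparison.

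Pdgfra, which marks the fibroblast-like cells that lie beside interstitial cells as well as other fibroblasts, went opposite to Ano1: its mean was 14.1 FPKM under blockade, 8.41 FPKM with DSS alone and 6.36 FPKM after the gavage, with -0.96 ± 0.22 (SE, limma adjusted p = 0.0712) in DSS_ICB_Fp against DSS_ICB and -0.90 (adjusted p = 0.0919) without DSS_ICB 3. Pericyte and vessel muscle genes, which share part of the contractile programme, had a median difference of 0.46 in DSS_ICB against DSS and -0.62 in DSS_ICB_Fp against DSS_ICB, fibroblast genes 0.62 and -0.74, and endothelial genes 0.70 and -0.81. Without DSS_ICB 3 these medians were 0.29 and -0.34, 0.46 and -0.64, and 0.54 and -0.65. Their summed levels in DSS_ICB were 50.2 to 298 FPKM, 563 to 1065 FPKM and 45.6 to 109.8 FPKM, and in DSS 42.8 to 79.1, 377 to 606 and 24.1 to 53.8 FPKM. By limma 0 genes of these lists were called in any comparison, with or without DSS_ICB 3. At an unadjusted p under 0.05 there were 3 of 7 pericyte, 3 of 8 fibroblast and 6 of 6 endothelial genes in DSS_ICB against DSS, where 11.3% of all genes were. In DSS_ICB_Fp against DSS_ICB there were 5 of 7, 6 of 8 and 6 of 6, where 21.8% of all genes were. Of 10 skeletal muscle genes 4 passed the filter. Myh4, Pvalb and Mb were each at 0 in 14 of 15 libraries, whereas Mylpf, Tnnt3 and Tnnc2 reached 1.81, 3.87 and 3.17 FPKM, Acta1 was at 36.7 FPKM in DSS_ICB 5 and Ckm at 37.2 FPKM in DSS_ICB 3. The 10 genes summed to 58.7 FPKM in DSS_ICB 3, 50.0 FPKM in DSS_ICB 5 and 6.77 to 24.8 FPKM in the others. The part of these cell types in the values of the listed genes was not tested.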

How the data were processed

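Colon RNA of 15 mice, 5 each in DSS, DSS_ICB and DSS_ICB_Fp, was analysed from 1 file per mouse. Per the submitters' processing notes, the tools were FastQC, STAR 2.5, Cuffnorm and DESeq with the build mm10; which annotation was used, and whether libraries were scaled further, is not given in the sources used here. The deposited unit is FPKM as the authors computed it, read from the tool named and from the values. Of 55335 gene IDs, 55154 matched a GENCODE M21 symbol. The labels do not say whether mice shared cages or litters.

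Genes with at least 1 FPKM in at least 5 libraries (14385, 32 of the 33 listed) were fitted as log2(FPKM + 1) with limma 3.58.1 (R 4.3.3; trend, robust), 1 mean per group over all 15 libraries, two-sided, Benjamini-Hochberg threshold 0.05. This scale understates folds of low genes. Depth was estimated from low values of 10677 genes with 1 transcript; 37.7% to 45.1% of these fell within 0.03 log2 of a whole step (10.0% to 10.8% with shifted steps), so whole reads were not recovered and no count test was run. Correlations used 100000 permutations. Tested on simulated data of DSS_ICB against DSS with 14385 genes, the fit recovered 88% of genes changed by 1.5 log2 and 99% of those changed by 3, with 7 false calls. The simulated noise was independent between genes and of the same spread in every group. The changed genes were drawn from all genes tested. The listed genes had their largest SD in DSS_ICB, and muscle genes had SEs of 0.40 to 0.67. These rates therefore do not give the power for the listed genes.

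The members, the 20 gene lists and the tests were chosen with earlier results of these data known. Values per mouse are given for 15 genes named beforehand by role and for the gene with the smallest p in each class and comparison; from other lists up to 3 genes with the smallest p in a comparison, and the skeletal muscle genes, Epcam and Chga as markers. The alternatives tried were other scalings (upper quartile, median of ratios), other pseudocounts (0.1, 10), the filter moved to 5 FPKM or dropped, the 2 compared groups alone, quality weights, each library left out in turn, DSS_ICB 3 and 5 left out together, and, added after seeing the data, the muscle covariate.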

Additional observations from a re-analysis of the deposited data

Results flagged for a closer look

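Among 48 checks (16 genes in 3 groups of 5, log2 values), 3 had 1 mouse whose gap to the nearest other mouse was over 0.71 of the group's range, which is Dixon's 95% critical value for 5 samples; chance flags about 1 in 20 groups. For Ano1 in DSS, DSS 3 was lowest, with a gap of 0.772 of the range, at 30.2 FPKM against 34.6 to 36.0 FPKM. For Sox10 in DSS, DSS 3 was highest, with a gap of 0.717, at 2.23 FPKM against 0.570 to 0.925 FPKM. For Sox10 in DSS_ICB, DSS_ICB 3 was highest, with a gap of 0.724, at 5.38 FPKM against 0.714 to 1.46 FPKM. DSS 3 was also the DSS mouse with the largest share of muscle FPKM, 1.96%.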

How the results depend on the processing

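The count of listed genes called was 0 in DSS_ICB against DSS and in DSS_ICB_Fp against DSS under every alternative run. In DSS_ICB_Fp against DSS_ICB it was 1 with quality weights (Ano1), 0 to 1 with each library left out in turn (1 without DSS_ICB 1, Ano1) and 2 with the muscle covariate (Ano1 and Cald1). Quality weights turned the muscle median to -0.13 in DSS_ICB against DSS and the neuron median to -0.20, and without DSS_ICB 3 and 5 together they were -0.59 and -0.48, with the glia median at -0.33. In DSS_ICB_Fp against DSS_ICB the neuron median was then 0.55 and the muscle median 0.49. With each library left out in turn the muscle median ran from -0.37 to 0.56 in DSS_ICB against DSS and from -0.62 to 0.25 in DSS_ICB_Fp against DSS_ICB, the neuron median from -0.23 to 0.32 and from -0.32 to 0.31. Of the 16 genes given per mouse, 14, 14 and 10 changed sign under at least 1 alternative (blockade against DSS, gavage against blockade, gavage against DSS), and 8 in each of the 2 comparisons with DSS_ICB when DSS_ICB 3 was left out. Without DSS_ICB 3 and 5 together, for Myh11 with Ano1, Pearson r was -0.0267 (permutation p = 0.929), for Myh11 with Epcam, Pearson r was -0.26 (permutation p = 0.386) and for Uchl1 with Chga, Pearson r was 0.64 (permutation p = 0.0161), a change of sign; with median-of-ratios scaling r of Myh11 with Ano1 was -0.53 (permutation p = 0.0526). The cause of these shifts was not tested. No paired analysis was possible because mouse numbers were given in accession order and link no mice between groups. Depth is an estimate, FPKM carry no counts, and 5 mice a group limit what can be called.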

Other observations

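Further cell types that share a layer or a marker with the listed genes are given as values. The 7 genes of interstitial and PDGFRA cells summed to 38.6 FPKM in DSS_ICB 3 and 87.6 to 160.0 FPKM in the other mice. Only 1 of the 7 was lowest in DSS_ICB 3, and 1 was highest there. The sum leaned on Thbs4, with group means of 75.5 to 110 FPKM, so it does not describe the list as a whole. Of the 8 enteroendocrine genes, which share Chga with neurons, 7 were lowest in DSS_ICB 3, where they summed to 83.3 FPKM against 163 to 481 FPKM elsewhere. Of the 6 mast cell genes, which share Kit with interstitial cells, 3 were tested and 0 called by limma, with 0 at an unadjusted p under 0.05 in each comparison. Of the 8 leukocyte genes, the neutrophil genes S100a8 and S100a9 fell by 5.85 and 6.10 on the log2 scale in DSS_ICB_Fp against DSS_ICB (limma adjusted p = 0.00610 and 0.00702), and the median difference of the 7 tested was -0.90. Mesothelium, which covers the muscle coat, had 1 of 6 genes tested, and adipocytes 4 of 6, with 0 called.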
